A study of Rattus norvegicus with 4 samples.

Results

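Prostaglandin synthesis and receptor genes are described here in 2 clones of PC12, a rat pheochromocytoma cell line that resembles adrenal chromaffin cells and sympathetic neurons. The 10 genes were chosen by name from the 25810 genes of the count files, and all 10 were found. They are the cyclooxygenases Ptgs1 and Ptgs2, the prostaglandin E synthases Ptges, Ptges2 and Ptges3, the prostacyclin synthase Ptgis, and the receptors Ptger1, Ptger2, Ptger3 and Ptger4. The study compared cells of the clone wtPC12, labelled wild type, and of the clone hrPC12, labelled high REST, with 2 RNA-Seq libraries each. The paper describes wtPC12 as low in REST. REST is a transcription repressor that holds down neuronal genes in non-neural cells. Each level of REST is represented by 1 clone, so an effect of REST and one of the clone itself cannot be told apart. The libraries of a clone are not stated to come from separate cultures, so p values measure the spread between libraries, which may be technical. In bulk RNA, fewer cells of a kind and less RNA per cell cannot be told apart.

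Prostaglandins are short-lived lipid mediators made from arachidonic acid. Phospholipases A2 free the acid from membranes, a cyclooxygenase turns it into prostaglandin H2, and a terminal synthase turns that into one prostanoid, such as prostaglandin E2 or prostacyclin. Ptgs1 is known as the cyclooxygenase that many cells carry at all times, and Ptgs2 as the one that cytokines, growth factors and neuronal activity switch on. Prostaglandin E2 acts on receptors of the cell surface named EP, of which Ptger1 couples to calcium signals, Ptger2 and Ptger4 raise cAMP and Ptger3 mostly lowers it.

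Reads on genes numbered from 20975027 to 27246502 per library. Levels are given below as normalized counts, which are reads scaled to a common library size with edgeR's TMM factors, and the floor of 3 reads corresponds to between 2.54 and 3.49 normalized counts. Rest itself measured 43.0 and 132 normalized counts in wtPC12 and 964 and 915 in hrPC12, with a log2 FC (hrPC12/wtPC12) of 3.42 ± 0.57 (SE; edgeR quasi-likelihood test, Benjamini-Hochberg adjusted p = 0.0115), just short of the threshold of 0.01 used below. Of 6 tested markers of chromaffin cells 5 were called lower in hrPC12, beside 5.46% of all genes tested. Among them Th (tyrosine hydroxylase) had a log2 FC of -3.08 and Dbh (dopamine beta-hydroxylase) of -5.34. The other, Ddc, was not called, at 24196 and 20841 normalized counts in wtPC12 and 26281 and 27995 in hrPC12 (log2 FC 0.27). Markers of leukocytes, which are rich in prostanoid enzymes, summed to 40.7 and 40.2 normalized counts in wtPC12 and to 88.0 and 98.1 in hrPC12. Most of that sum was Cd68, at 23.3 and 28.8 against 75.3 and 87.0 (log2 FC 1.63, edgeR, Benjamini-Hochberg adjusted p = 0.0283), which did not pass the threshold on the fold. Neither tested leukocyte marker was called, and Ptprc, which defines leukocytes, had 1 read in all. Of 3 tested endothelial markers Vwf was called higher in hrPC12. Tek measured 17.4 and 26.8 against 57.6 and 52.6 and was not called (log2 FC 1.31, edgeR, Benjamini-Hochberg adjusted p = 0.0665). The endothelial markers summed to 95.4 and 115 in wtPC12 and to 627 and 619 in hrPC12. Most of each sum was Vwf, at 66.3 and 81.4 in wtPC12 and 564 and 560 in hrPC12. The defining genes Pecam1 and Cdh5 had at most 2 and 8 reads in a library. Cdh5 was not called, at 9.31 and 7.21 normalized counts in wtPC12 and 5.93 and 6.07 in hrPC12. The part of such cells in the results below was not tested.

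The sequences that precede 3 of the genes are shown because the results turn on them. Ptgs1 and Ptgs2 are the alternative cyclooxygenases and differ in their reads, and Ptger3 is the receptor gene that was called. The sequences are those of RefSeq in the build GRCr8, which is not the build of the counts, on the plus strand and directly upstream of the gene. Capitals mark matches to the motifs searched on both strands.
Ptgs1, chr3:39981169-39981418: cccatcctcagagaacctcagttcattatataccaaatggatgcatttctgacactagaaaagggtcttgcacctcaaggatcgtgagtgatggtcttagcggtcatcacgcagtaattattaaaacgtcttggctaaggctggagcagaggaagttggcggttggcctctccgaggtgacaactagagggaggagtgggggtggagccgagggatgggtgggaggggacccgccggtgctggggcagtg
Ptgs2, chr13:64713813-64714062: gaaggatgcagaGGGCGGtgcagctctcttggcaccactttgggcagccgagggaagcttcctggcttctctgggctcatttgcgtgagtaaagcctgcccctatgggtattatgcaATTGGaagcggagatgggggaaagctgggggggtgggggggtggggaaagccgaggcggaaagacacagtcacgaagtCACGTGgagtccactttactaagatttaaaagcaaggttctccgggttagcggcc
Ptger3, chr2:249264832-249264984: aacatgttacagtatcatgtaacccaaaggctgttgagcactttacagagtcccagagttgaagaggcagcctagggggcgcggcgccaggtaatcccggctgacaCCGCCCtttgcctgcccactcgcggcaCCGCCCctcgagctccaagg
In the Ptgs2 sequence the first capitals are a GC box, searched as GGGCGG. The next are a match to the CCAAT box, read on the other strand. The last are an E-box, searched with the letters CACGTG. In the Ptger3 sequence they are GC boxes on the other strand. The Ptgs1 sequence held no match to any motif searched. Of 27457 promoters in the table, 32.4% held the GC box in the 250 bases before the start, 34.3% the CCAAT box and 5.79% the E-box. The TATA box, searched as TATAAA, was in 13.1% of all promoters, and the AP-1 site, searched as TGANTCA, was in 6.36%. The cAMP response element, searched as TGACGTCA, was in 1.70%. None of these last 3 was found in the 8 prostaglandin genes with an entry. RE-1, the element bound by REST, was searched as a left part and a right part. The left part, TTCAGCACC, occurred in 0.317% of all promoters and in 0 of the 8 genes. The right part, GGACAG, occurred in 18.3% of all promoters and in 4 of the 8 genes (Ptges, Ptges3, Ptger1 and Ptger3), for Ptger3 in the stretch beyond that printed. Of the 250 bases searched, 171 for Ptges3, 153 for Ptger3 and 0 for Ptger1, Ptger2 and Ptger4 lie outside the annotated gene. The match in Ptger1 and the lack of matches in Ptger2 and Ptger4 thus concern bases within the gene. The motif letters do not overlap in the printed sequences. A match describes letters, not a site in use. Ptges2 and Ptgis have no entry in the table.

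Of the 10 genes, 8 were tested, since the study kept genes read in both clones whose mean normalized count was 5 or more. Ptgs1 and Ptger3 were called higher in hrPC12, past both thresholds of the study (adjusted p of 0.01, log2 FC of 2), and 0 were called lower (edgeR quasi-likelihood test with Benjamini-Hochberg adjustment over 13726 genes). Over all genes tested, 4.84% were called higher and 5.46% lower, 10.3% in all. At an unadjusted p under 0.05, 4 of the 8 passed, beside 46.3% of all genes tested. The clones did not overlap in 6 of the 8 genes, with Ptgs1, Ptger3 and Ptger4 higher and Ptges, Ptges2 and Ptger1 lower, where 73.5% of all genes tested did not overlap. With so few genes neither share is read as particular to them. The median log2 FC of the 8 was 0.00078, beside 0.06 over all genes tested. For 1 gene in 2 libraries a clone, the smallest p of an exact 2-sided permutation test is 0.333, so the calls rest on the spread that edgeR shares across genes.

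**Figure D1:**
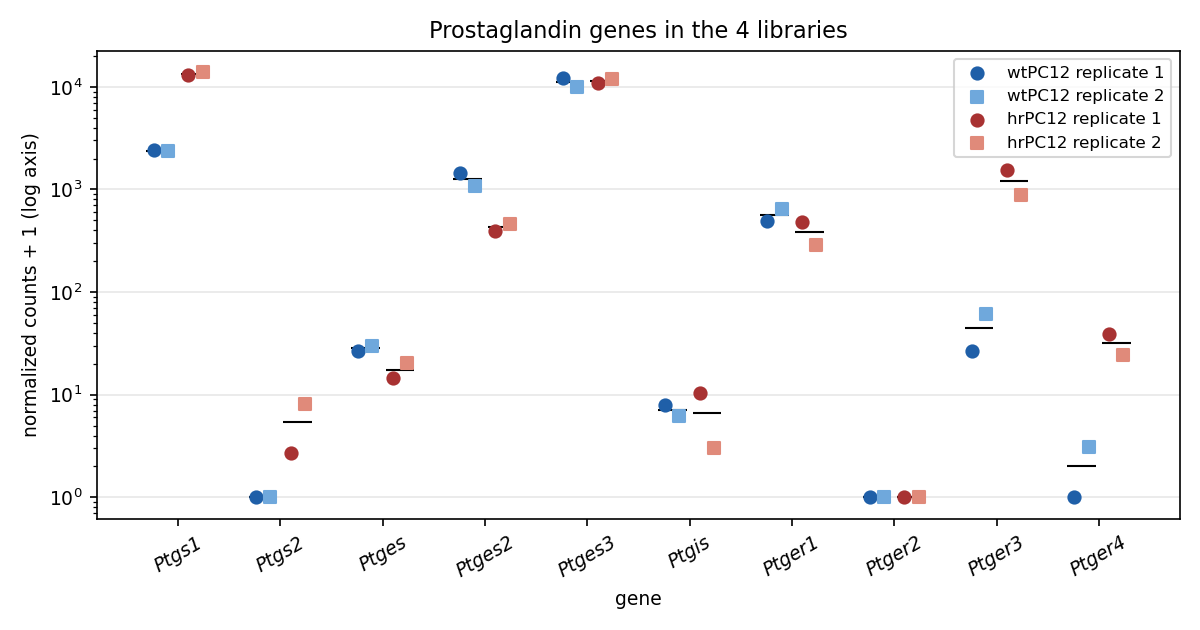
Normalized counts plus 1 on a log axis for the 10 prostaglandin genes, with a point for each library and a bar at the mean of each clone (n = 2). Ptgs1 and Ptger3 are higher in both hrPC12 libraries than in both wtPC12 libraries, Ptges3 and Ptgis overlap, and Ptger2 lies at 0 reads in all 4 libraries.

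The clones differed in the constitutive cyclooxygenase, and the inducible one was near the floor in both. Ptgs1 measured 2399 and 2343 normalized counts in the wtPC12 libraries and 12902 and 13944 in the hrPC12 libraries. Each clone's pair lay close together, and the clones were far apart. The means were 2371 ± 39.0 and 13423 ± 737 (SD, n = 2), 5.66-fold higher in hrPC12, with a log2 FC of 2.50 ± 0.17 (SE; edgeR quasi-likelihood test, Benjamini-Hochberg adjusted p = 0.000923). Leaving out each library in turn gave a log2 FC between 2.40 and 2.56. The adjusted p was 0.0160 without wtPC12 replicate 2, a fit in which 0 of 13726 genes were called although 6942 had an unadjusted p under 0.05. In edgeR's glmTreat, which tests against a log2 FC of 2 rather than 0, the adjusted p of Ptgs1 was 0.0435.

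Ptgs2 had 0 reads in both wtPC12 libraries and 2 and 7 reads in hrPC12 replicates 1 and 2. It was left untested because wtPC12 held no read and its mean normalized count was under 5. The mean of 4.39 ± 3.81 normalized counts (SD, n = 2) in hrPC12 lay near the floor, and replicate 1 was under it. When every gene with at least 1 read was tested, the adjusted p was 0.117 (edgeR quasi-likelihood test, Benjamini-Hochberg). In that fit the log2 FC of Ptgs2 was 5.13 ± 2.13 (SE). There 5 of 9 tested prostaglandin genes, Ptgs2 among them, had an unadjusted p under 0.05, beside 7501 of 18416 genes. A difference in Ptgs2 is neither called nor shown to be absent.

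The genes with the profile closest to Ptgs1 over the 4 libraries were Rcn1, Slc40a1 and RGD1561157. Their centred log2 normalized counts (pseudocount 1) differed from those of Ptgs1 by a root mean square of 0.0244, 0.0375 and 0.0454. Rcn1, which encodes a calcium-binding protein of the endoplasmic reticulum, measured 1645 and 1644 normalized counts in wtPC12 and 9277 and 9846 in hrPC12. Slc40a1 encodes the iron exporter ferroportin and measured 55.8 and 54.6 in wtPC12 and 313 and 351 in hrPC12.

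None of the 3 prostaglandin E synthase genes was called, and the lowest fold was that of Ptges2. Ptges2, the membrane-associated synthase 2, measured 1446 and 1087 normalized counts in wtPC12 and 393 and 464 in hrPC12. Both hrPC12 libraries lay below both wtPC12 libraries. The means of 1266 ± 254 and 428.6 ± 50.7 (SD, n = 2) differed 2.95-fold, with a log2 FC of -1.56 ± 0.25 (SE; edgeR quasi-likelihood test, Benjamini-Hochberg adjusted p = 0.0108). This is past an adjusted p of 0.05, as in 32.4% of all genes tested, but within the log2 FC threshold. Under the alternatives that test for any change the adjusted p lay between 5.14e-06 (DESeq2) and 0.0235 (edgeR without wtPC12 replicate 2), and the log2 FC between -1.75 and -1.37.

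Ptges, the microsomal synthase 1 that is usually induced along with Ptgs2, had few reads in either clone. It measured 25.6 and 28.8 normalized counts in wtPC12 and 13.5 and 19.2 in hrPC12. The hrPC12 libraries were the lower pair without overlap, but the log2 FC of -0.74 ± 0.44 did not pass (SE; edgeR quasi-likelihood test, Benjamini-Hochberg adjusted p = 0.245).

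Ptges3, the cytosolic synthase that is better known as the Hsp90 co-chaperone p23, had 12057 and 10012 normalized counts in wtPC12 and 10817 and 12012 in hrPC12. The clones overlapped. Its log2 FC was 0.05 ± 0.19 (SE; edgeR quasi-likelihood test, Benjamini-Hochberg adjusted p = 0.854), and the sign turned when wtPC12 replicate 2 or hrPC12 replicate 2 was left out (-0.08 and -0.07). Of 7 tested genes of the Hsp90 chaperone cycle 0 were called either way (edgeR), with log2 FC between -0.51 and 0.77 and a median of -0.33, and 2 had an unadjusted p under 0.05, beside 46.3% of all genes tested.

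Ptgis, the synthase of prostacyclin, had 6 and 5 reads in wtPC12 and 11 and 2 in hrPC12. The 2 hrPC12 libraries enclosed those of wtPC12. The log2 FC of -0.05 ± 0.84 (SE; edgeR quasi-likelihood test, Benjamini-Hochberg adjusted p = 0.968) has an error too wide at this depth to separate a rise from a fall.

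**Figure D2:**
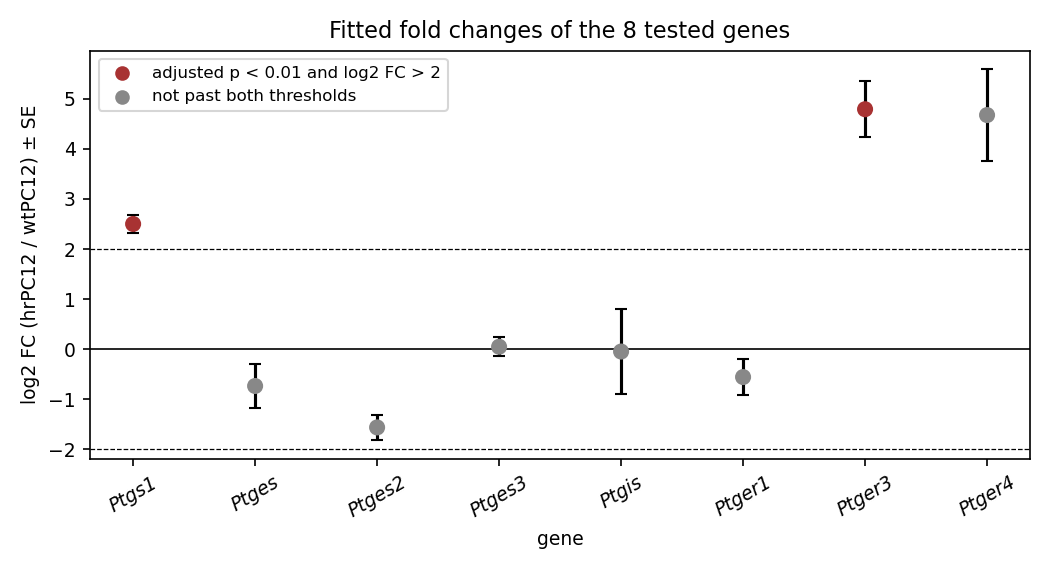
Fitted log2 FC (hrPC12/wtPC12) with its SE for the 8 tested prostaglandin genes, with dashed lines at the threshold of 2 in either direction. Ptgs1 at 2.50 and Ptger3 at 4.79 passed both thresholds, Ptger4 at 4.68 passed that on the fold only, and Ptges2 at -1.56 was the lowest.

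Of the receptors for prostaglandin E2, Ptger3 was called higher in hrPC12, Ptger4 and Ptger1 gave no call, and Ptger2 had no read. Ptger3, the receptor that mostly couples to Gi, measured 25.6 and 60.8 normalized counts in wtPC12 and 1538 and 877 in hrPC12. The lower hrPC12 library lay well above the higher wtPC12 library, though the libraries of each clone were also apart. The means were 43.2 ± 24.9 and 1208 ± 467 (SD, n = 2), with a log2 FC of 4.79 ± 0.56, 27.7-fold higher in hrPC12 (SE; edgeR quasi-likelihood test, Benjamini-Hochberg adjusted p = 0.00405). Without wtPC12 replicate 2, the log2 FC was 5.55 with an adjusted p of 0.0262. Without wtPC12 replicate 1 it was 4.27, and it stayed called (adjusted p = 0.00674). Under glmTreat the adjusted p was 0.0151.

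Ptger4, one of the receptors that couple to Gs and raise cAMP, had 0 and 2 reads in wtPC12 and 45 and 23 reads in hrPC12. Both wtPC12 libraries were under the floor and both hrPC12 libraries above it. The ratio of 68 reads to 2, scaled for library size, was 28.7, with a 95% interval for counting error alone from 7.64 to 242 (exact binomial). The fitted log2 FC of 4.68 ± 0.91 did not reach the call (SE; edgeR quasi-likelihood test, Benjamini-Hochberg adjusted p = 0.0186). It was 3.41 with a prior count of 2, 3.79 without wtPC12 replicate 1 and 7.97 without wtPC12 replicate 2, which leaves a wtPC12 library with no read. Without hrPC12 replicate 1 it was 4.27, and without hrPC12 replicate 2 it was 4.94. Among the fits that kept every library, the adjusted p of Ptger4 was under 0.01 with DESeq2 (0.00729), RLE factors (0.00649), no filter on low counts (0.00561) and library totals alone (0.00764). Under edgeR's glmTreat the adjusted p was 0.112.

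Ptger1 measured 488.6 and 643.8 normalized counts in wtPC12 and 485.1 and 284.3 in hrPC12. The higher hrPC12 library lay just below the lower wtPC12 library. The log2 FC was -0.56 ± 0.35 (SE; edgeR quasi-likelihood test, Benjamini-Hochberg adjusted p = 0.265), and between -0.99 and -0.27 with a library left out. Ptger2, the other receptor known to raise cAMP, had 0 reads in each of the 4 libraries, which allows up to 3 reads, or 2.54 to 3.49 normalized counts.

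The receptor genes shared a local difference between the hrPC12 libraries. Along the gene order of GRCr8, hrPC12 replicate 1 exceeded replicate 2 in stretches of neighbouring genes, found where the median log2 ratio over 7 neighbours was past 0.4. These stretches held 1358 of 10411 placed genes (13.0%), with a median ratio of 1.77-fold. Ptger1, Ptger3 and Ptger4, which are all the receptor genes tested, lie in such stretches, and the 5 tested enzyme genes do not. The log2 ratio of replicate 1 to replicate 2 was 0.77 for Ptger1, 0.81 for Ptger3 and 0.69 for Ptger4. The medians of their 6 nearest expressed neighbours were 0.80, 0.85 and 0.72. Divided by its neighbours' median ratio, replicate 1 gave 279 normalized counts for Ptger1, 854 for Ptger3 and 23.1 for Ptger4, beside 284, 877 and 23.3 in replicate 2. For Ptgs1 the ratio was -0.11, beside a median of 0.08 for its neighbours. Which of the libraries departs in these stretches cannot be told from their ratio, and the part of the stretches in the receptor results was not tested beyond a fit with replicate 1 scaled down there. In that fit Ptger3 stayed called (log2 FC 4.33, adjusted p = 0.00294), Ptger4 had a log2 FC of 4.21 (adjusted p = 0.0200), and Ptger1 of -0.997 ± 0.23 (adjusted p = 0.0296; edgeR quasi-likelihood test with Benjamini-Hochberg adjustment in all 3). The scaling used the median over 7 genes, which for Ptger1 and Ptger3 includes the gene itself. In log2 it was 0.78 for Ptger1, 0.81 for Ptger3 and 0.885 for Ptger4. For Ptger3 this was its own ratio, so its hrPC12 libraries were made nearly equal by construction. The adjusted p of Ptger3 and Ptger1 in that fit therefore does not measure the spread between the hrPC12 libraries. All 6 neighbours of Ptger3 also had a log2 FC above 0, from 1.38 to 4.98 with a median of 1.88, below the 4.79 of Ptger3 itself. The neighbours of Ptger4 ranged from 0.43 to 2.65, and those of Ptger1 from -0.20 to 1.40.

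**Figure D3:**
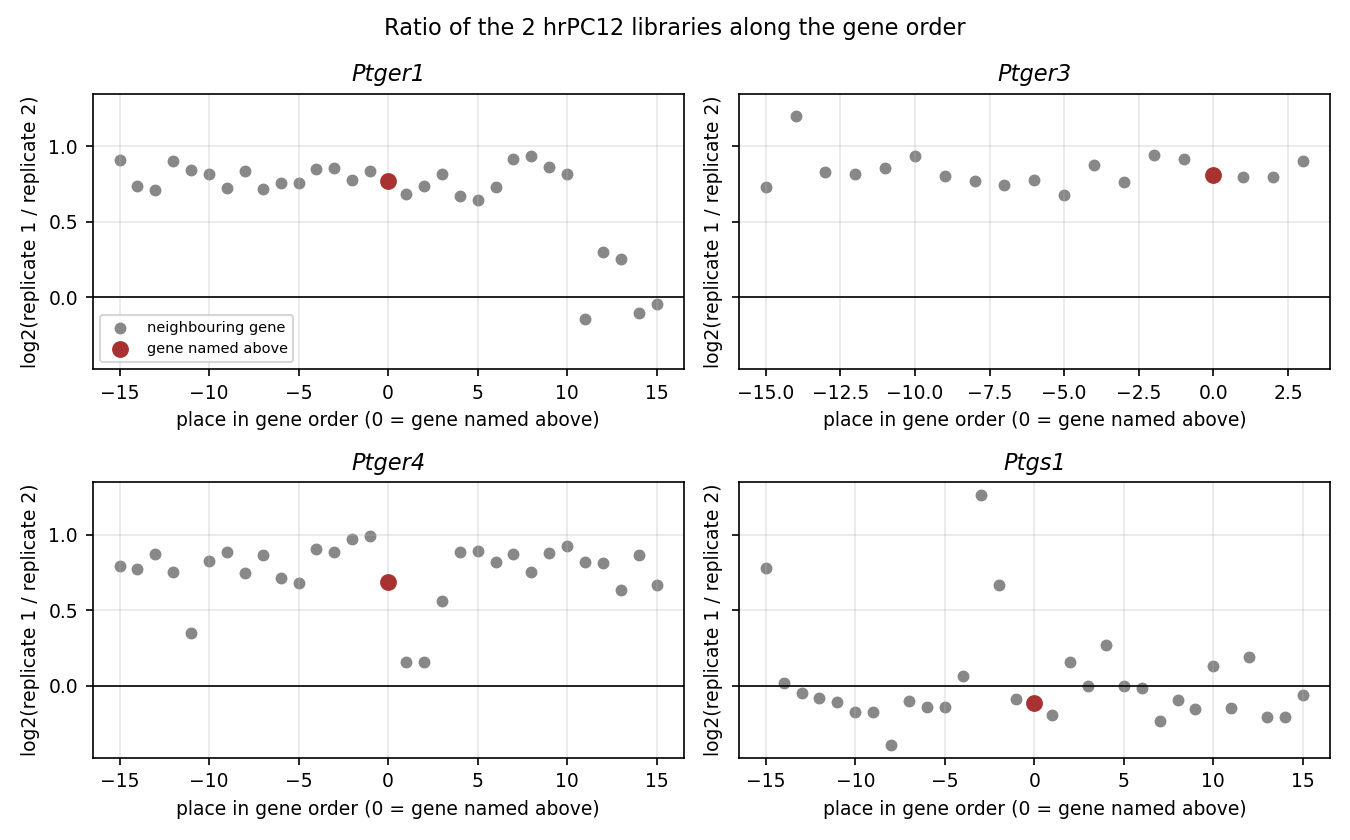
Log2 ratio of hrPC12 replicate 1 to replicate 2 for Ptger1, Ptger3, Ptger4 and Ptgs1 (red) and up to 15 expressed genes on each side (grey), placed by gene order. The 3 receptor genes sit at 0.69 to 0.81 among neighbours that are mostly as high, and Ptgs1 sits at -0.11 among neighbours that are mostly near 0.

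The genes that surround the pathway were read from 9 lists of 117 genes, of which 103 were in the files and 71 were tested. In them, 3 genes were called higher and 4 lower, beside 4.84% and 5.46% of all genes tested, and the median log2 FC was 0.03. Upstream of the cyclooxygenases, 12 phospholipases A2 were tested, with 1 called higher and 0 lower, and a median log2 FC of 0.28. The one called was Pla2g4a, the cytosolic phospholipase A2 that releases arachidonic acid upon a rise of calcium. It had 2 and 0 reads in wtPC12 and 412 and 337 in hrPC12, and both wtPC12 libraries were under the floor. The scaled ratio of 749 reads to 2 was 316, with a 95% interval for counting error from 87.2 to 2614 (exact binomial), and the log2 FC was 8.14 ± 0.73 (SE; edgeR quasi-likelihood test, Benjamini-Hochberg adjusted p = 0.00186). With a library left out the fitted value of Pla2g4a ranged from 7.14 without wtPC12 replicate 2 (adjusted p = 0.0141) to 11.49 without wtPC12 replicate 1, which leaves a wtPC12 library with no read.

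Among 8 tested genes that store or release arachidonate by other routes, 2 were called, both lower, beside 5.46% of all genes tested. With so few genes the share is not read as particular to the list. The median log2 FC was 0.08. Mgll, the monoacylglycerol lipase that frees arachidonate from the endocannabinoid 2-arachidonoylglycerol, had 294 and 343 normalized counts in wtPC12 and 19.5 and 24.3 in hrPC12. Its log2 FC was -3.86 ± 0.34 (SE; edgeR quasi-likelihood test, Benjamini-Hochberg adjusted p = 0.00173). Dagla, the diacylglycerol lipase that makes the same endocannabinoid, had 169 and 251 in wtPC12 and 37.2 and 24.3 in hrPC12. Its log2 FC was -2.76 ± 0.42 (SE; edgeR, Benjamini-Hochberg adjusted p = 0.00892). The call of Dagla was lost without hrPC12 replicate 2 (adjusted p = 0.0129) and without wtPC12 replicate 2 (0.0407), and that of Mgll without the latter (0.0193).

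None of the synthases, carriers, breakdown enzymes and receptors of the other prostanoids passed both thresholds in the fit used throughout (edgeR). There 1, Ptgds, had an unadjusted p under 0.05, beside 46.3% of all genes tested. Among the synthases, Ptgds, which makes prostaglandin D2 in brain and other tissues, had 1 and 0 reads in wtPC12 and 28 and 38 in hrPC12. The scaled ratio of 66 reads to 1 was 55.7, with a 95% interval for counting error from 9.65 to 2232 (exact binomial), and the adjusted p was 0.0119 (edgeR quasi-likelihood test, Benjamini-Hochberg). Ptgds was called under most of the alternatives, in edgeR with RLE factors (adjusted p = 0.00403), library totals (0.00450), no filter on low counts (0.00311), filterByExpr (0.00924), the legacy option off (0.00684), without hrPC12 replicate 1 (3.27e-06) and without hrPC12 replicate 2 (0.00775), and in DESeq2 (0.00561). Among the fits that did not call Ptgds were edgeR's glmTreat (adjusted p = 0.0559) and those without wtPC12 replicate 1 or wtPC12 replicate 2. Hpgds, the hematopoietic form, had 1 read in all and Tbxas1, the thromboxane synthase, 3 reads in wtPC12 replicate 2 and 1 in hrPC12 replicate 1. Akr1b3, counted under the name Akr1b1, is an aldose reductase that can make prostaglandin F2alpha and had a log2 FC of 0.24. Cbr1, a carbonyl reductase, had a log2 FC of -0.38. The breakdown enzymes Ptgr1 and Ptgr2 had log2 FC of -0.34 and -0.24, the exporter Abcc4 of -0.29 and Zadh2 of -0.40. Slco2a1, the importer of prostaglandins, had 1 read in all, and Hpgd, which starts their inactivation, had 2 reads in wtPC12 and 4 in hrPC12. Of the other receptors only Tbxa2r, for thromboxane, was tested, with 168 and 245 normalized counts in wtPC12, 216 and 207 in hrPC12 and a log2 FC of 0.04 ± 0.31. Ptgir, the prostacyclin receptor, had 8 and 8 reads in wtPC12 and 0 and 2 in hrPC12. Ptgdr had 2 reads in all, and Ptgdr2, counted under the name Gpr44, had 3. Ptgfr and Fam213b were not analysed here.

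Arachidonic acid can also enter the lipoxygenase route, where 8 genes were tested, with a median log2 FC of -0.21. Of these 1 was called, lower, beside 5.46% of all genes tested. Aloxe3, an epidermal-type lipoxygenase that acts on lipid hydroperoxides, had 600 and 594 normalized counts in wtPC12 and 86.3 and 85.0 in hrPC12 (log2 FC -2.80 ± 0.26 SE; edgeR quasi-likelihood test, Benjamini-Hochberg adjusted p = 0.00203). Alox5ap of the same list was left untested, with 0 reads in both wtPC12 libraries and 16 and 14 in hrPC12. When every gene with at least 1 read was tested, it was called higher (log2 FC 6.80 ± 1.37 SE; edgeR quasi-likelihood test, Benjamini-Hochberg adjusted p = 0.00941). With edgeR's filterByExpr it was not called (adjusted p = 0.0115). Downstream of the receptors, 19 genes of the cAMP pathway were tested, with a median log2 FC of 0.15. In this list 1 was called higher and 1 lower, beside 4.84% and 5.46% of all genes tested. Rapgef4, the cAMP-responsive exchange factor Epac2, had 2 and 1 reads in wtPC12 and 69 and 36 in hrPC12. The scaled ratio of 105 reads to 3 was 29.5, with a 95% interval for counting error from 9.83 to 146 (exact binomial; edgeR quasi-likelihood test, Benjamini-Hochberg adjusted p = 0.00695). Pde3a, a phosphodiesterase that breaks down cAMP, had 244 and 918 normalized counts in wtPC12 and 4.23 and 4.05 in hrPC12. Its wtPC12 libraries differed widely from each other but both were far above hrPC12 (log2 FC -7.09 ± 0.90 SE; edgeR, Benjamini-Hochberg adjusted p = 0.00529). Leaving out wtPC12 replicate 2 moved the log2 FC of Pde3a to -5.84 and its adjusted p to 0.0153, and leaving out wtPC12 replicate 1 moved the log2 FC to -7.78. The call of Rapgef4 was lost without wtPC12 replicate 1 (0.0187) or replicate 2 (0.0460), and that of Aloxe3 without wtPC12 replicate 2 (0.0167).

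Of 9 tested inducers and regulators of Ptgs2, 1 was called, higher, beside 4.84% of all genes tested, and the median log2 FC was 0.44. Il1rap, the accessory chain of the interleukin-1 receptor, had 12.8 and 28.8 normalized counts in wtPC12 and 290 and 294 in hrPC12 (log2 FC 3.79 ± 0.47 SE; edgeR quasi-likelihood test, Benjamini-Hochberg adjusted p = 0.00494). Without wtPC12 replicate 2 the log2 FC of Il1rap was 4.50 with an adjusted p of 0.0164.

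**Figure D4:**
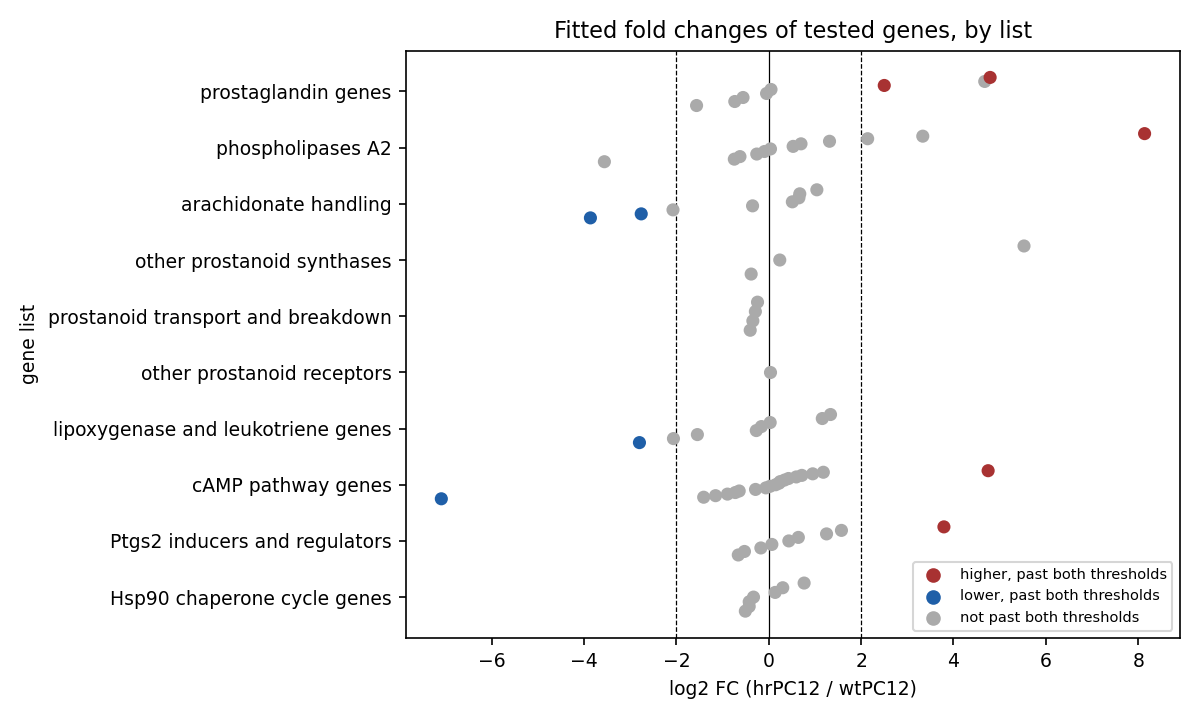
Fitted log2 FC (hrPC12/wtPC12) of each tested gene, in rows by list, with dashed lines at the threshold of 2 in either direction and colour for genes past both thresholds. The point at 8.14 is Pla2g4a and that at -7.09 is Pde3a, and most genes of each list lie between the dashed lines.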

How the data were processed

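RNA was extracted from washed PC12 cells, made into libraries with the TruSeq RNA v2 kit and sequenced as paired-end reads. Per the labels, the authors used TopHat2 2.0.4, HTSeq 0.5.3 and the genome build rn4, and deposited raw counts per gene, with no normalization. The kit does not mark strand, so reads of a gene and of an antisense partner, or of a processed copy such as one of Ptges3, cannot be told apart. A deposited table of DESeq 1.9.12 means, fold changes and p values was not used. Counts are of reads, not of molecules, and intervals and floors cover counting error only.

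Counts of all genes were normalized with TMM and compared with edgeR 4.0.16 (glmQLFit and glmQLFTest, legacy option on) in R 4.3.3, in place of DESeq, on the 13726 genes read in both clones whose mean normalized count was 5 or more. Calls needed a Benjamini-Hochberg adjusted p below 0.01 together with a log2 FC beyond 2. Scaling, filter, tool (DESeq2 1.42.0, glmTreat), threshold, prior count, local scaling and left-out libraries were varied. Where a library was left out, the lone library of its clone was assumed to vary like the others. On simulated counts of 13612 genes with 200 changed by a log2 FC of 4, edgeR found 200, DESeq2 200 and glmTreat 192, with 0 false calls each. The changed genes were drawn from those with higher counts, and every gene had the same dispersion of 0.0745. A false call also had to pass the log2 FC threshold. The simulation does not cover genes with few reads, smaller changes, or the larger share called in the data (1414 of 13726).

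Members and lists were chosen with earlier results of these data known. Alox5ap is named for its call without the filter on low counts. The text names all 10 genes with values, genes of the lists past both thresholds (up to 4 a list), the genes of the lists of other prostanoid synthases, of transport and breakdown and of other receptors, the 3 genes most like Ptgs1, Rest and cell markers. Gene order came from RefSeq in GRCr8, where 75.8% of tested genes were placed by symbol.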

Additional observations from a re-analysis of the deposited data

How the results depend on the processing

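Of 111 log2 FC values of the prostaglandin genes under the alternatives, 95 kept their direction and their side of the threshold. Another 4 lost a call, 7 gained one and 5 turned direction. The threshold of 0.05 and glmTreat keep the log2 FC of the main fit, so their values could not turn direction. A prior count of 2 keeps its adjusted p. The 95 thus include outcomes that were partly fixed in advance. Counts of calls are not part of the 111 and follow here. Among the prostaglandin genes 2 were called higher, and 0 under glmTreat, which asks for more by its construction, with 321 higher and 353 lower calls over all genes. With a library left out, the number ranged from 0 to 3, and 0 were called lower under every alternative run. The 0 came from leaving out wtPC12 replicate 2, where edgeR called 0 of all genes, 6942 had an unadjusted p under 0.05, and the cause was not tested. Of the pathway genes 3 were called higher, and 5 with library totals alone, 6 with every gene that had a read, 5 with DESeq2, 1 under glmTreat, 6 at an adjusted p under 0.05, and from 0 to 5 with a library left out. In these lists 4 were called lower, and 1 under glmTreat and from 0 to 5 with a library left out. The log2 FC of Ptges3 (0.05) ranged from -0.0791 to 0.16 with a library left out, the lowest without wtPC12 replicate 2, and was -0.07 without hrPC12 replicate 2. That of Ptgis (-0.05) was 0.0066 with library totals alone and ranged from -1.52 to 0.57 with a library left out, being 0.14 without wtPC12 replicate 1, and edgeR's filterByExpr removed it. No paired analysis was made, because the labels do not state which libraries of the 2 clones belong together. Depth limits Ptgs2, Ptger2, Ptger4, Ptges and Ptgis, which had at most 45 reads in a library.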
